A study of Saccharomyces cerevisiae with 6 samples.

Results

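The ATG genes encode the autophagy machinery of budding yeast. They were taken here as every row of the count tables whose gene name is ATG followed only by digits, which gave 35 of the 6445 genes listed, and all 35 passed the filter on low counts. RNA from a strain making β-carotene was sequenced beside RNA from its parent, with 3 libraries of each strain. The parent is CEN.PK2-1C, a laboratory strain labelled WT, and the producer carries the genotype label CrtI/E/YB, after introduced genes of carotenoid synthesis. Both strains were shaken in YPD, which is rich and contains glucose, at 30 °C over 18 h, and the labels name no starvation step. Levels are given in CPM, counts per 1e6 counts of a library. Since no label ties the replicates to separate cultures, the p-values below reflect variation among these libraries alone, and that variation may be technical.

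In autophagy a membrane sheet forms beside the vacuole, closes around cytoplasm and fuses with the vacuole, where its content is broken down. Atg1 kinase starts the process, a phosphatidylinositol 3-kinase complex marks the membrane, Atg9 vesicles and Atg2 bring lipid, and a pair of ubiquitin-like conjugation systems fixes Atg8 to the membrane. Receptors such as Atg19 and Atg32 tie a particular cargo to Atg8 and to the scaffold Atg11. In fed yeast the Cvt route uses much of the same machinery to carry enzymes to the vacuole, and starvation raises transcription of several ATG genes.

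The promoters of ATG8, ATG29 and ATG41 are shown because ATG8 holds all 4 motifs searched, ATG29 had the lowest and ATG41 the highest log2 fold change of the 35 genes. Each runs from 250 bases before to 50 bases after the annotated start, which is the start of the coding sequence here, and was read from the RefSeq genome assembly R64. Capitals mark GATAAG, the letters bound by Gln3 and Gat1, GCCGCC, bound by Ume6, TGACTC, bound by Gcn4, and AGGGG, bound by Msn2 and Msn4, on either strand.
ATG8, chrII:80682-80981, minus strand: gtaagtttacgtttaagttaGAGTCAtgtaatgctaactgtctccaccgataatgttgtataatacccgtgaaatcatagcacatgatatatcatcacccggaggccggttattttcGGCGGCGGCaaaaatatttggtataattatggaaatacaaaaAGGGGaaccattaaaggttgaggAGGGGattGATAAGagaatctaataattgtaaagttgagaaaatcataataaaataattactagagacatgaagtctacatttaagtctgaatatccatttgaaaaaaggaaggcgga
ATG29, chrXVI:237088-237387, plus strand: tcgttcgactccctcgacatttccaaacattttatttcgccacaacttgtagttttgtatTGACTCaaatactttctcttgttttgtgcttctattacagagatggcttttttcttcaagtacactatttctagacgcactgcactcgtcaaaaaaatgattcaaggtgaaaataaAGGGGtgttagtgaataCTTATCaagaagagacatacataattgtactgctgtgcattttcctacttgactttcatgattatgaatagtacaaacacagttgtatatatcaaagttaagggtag
ATG41, chrXVI:74670-74969, minus strand: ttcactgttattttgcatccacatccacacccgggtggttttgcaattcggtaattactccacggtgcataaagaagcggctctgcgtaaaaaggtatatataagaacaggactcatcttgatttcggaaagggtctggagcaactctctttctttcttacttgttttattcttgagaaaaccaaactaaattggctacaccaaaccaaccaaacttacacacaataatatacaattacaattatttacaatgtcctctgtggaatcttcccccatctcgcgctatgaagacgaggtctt
Matches of GCCGCC overlap each other in ATG8, and ATG41 holds 0 of the 4 motifs in this window. Of the 35 ATG promoters, 10 hold GATAAG, or 28.6%, against 14.6% of the 6020 promoters of protein-coding genes. TGACTC is in 7 of 35, or 20.0%, against 8.0% of all. Its match in ATG10 lies inside the coding sequence, and its match in ATG13 runs across the start of it. GCCGCC is in 3 of 35, or 8.57%, against 5.12%, and AGGGG in 8 of 35, or 22.9%, against 21.6%. The 10 genes with GATAAG had a median log2 fold change, producer minus parent, of -0.01 and the 25 without it -0.11. For TGACTC these medians were -0.08 and -0.08, for GCCGCC -0.03 and -0.09, and for AGGGG -0.12 and -0.08. After the GC-content correction described below, the medians with and without the motif were 0.01 and 0.00 for GATAAG, -0.05 and 0.01 for TGACTC, -0.03 and 0.01 for GCCGCC, and -0.03 and 0.02 for AGGGG.

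The libraries held 48.4 to 58.3 M estimated counts (M, 1e6), and parent replicates 2 and 3 were the shallower ones. GAL80, the repressor of the galactose regulon, was counted 0, 0 and 2 times in the producer and 4891 to 6267 times in the parent, so the strain labels separate on this gene. Mating type markers did not separate cleanly in either strain. Of the genes of a cells, STE2 had 14428 to 19193 counts in the 6 libraries, STE6 8657 to 10678, BAR1 2864 to 4374, MFA2 1576 to 2175 and MFA1 474 to 749. Of the genes of α cells, SAG1 had 4621 to 6596, STE3 673 to 1108, MF(ALPHA)2 435 to 598 and MF(ALPHA)1 48 to 152. These counts are not scaled by gene length. In mean CPM per kb of gene length, SAG1 stood at 59.1 in the producer and 49.8 in the parent. STE2, MFA1 and MFA2 lay above SAG1 on that scale in both strains. STE6, at 43.6 and 49.1, and BAR1 lay below it, and STE3, MF(ALPHA)2 and MF(ALPHA)1 lay lower still. In these libraries the log2 fold change of a gene followed its GC content, with a Spearman correlation of 0.641 across 6063 genes, which are not independent replicates. Values after a correction for that trend are therefore given beside the main ones.

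None of the ATG genes passed the test. In edgeR's quasi-likelihood test 0 of 35 had an adjusted p under 0.05, where 1.14% of the 6125 tested genes did. At an unadjusted p under 0.05 there were 8 of 35, against 27.3% of all tested genes. Of these, 5 were lower in the producer, against 13.5% of all, and 3 higher, against 13.8%. DESeq2 called 5 of 35, against 14.6% of all, and limma-voom called 0. The log2 fold changes lay between -0.34 and 0.45, with a median of -0.08 beside -0.01 for all tested genes. Of the 35 genes 22 were below 0, beside 3154 of the 6125 tested genes. After the GC-content correction 15 of 35 were below 0, beside 2914 of 6063 genes. The 95% interval, not adjusted for the number of genes, stayed within a 1.5-fold change for 32 of 35, against 81.8% of all tested genes. The exceptions were ATG10, ATG15 and ATG41. For all 35 the interval excluded a 2-fold change, a count that was not made over all tested genes. Leaving out parent replicate 1 gave 5 called ATG genes, against 17.5% of all genes tested without it, and no other library changed the count of 0.

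**Figure D1:**
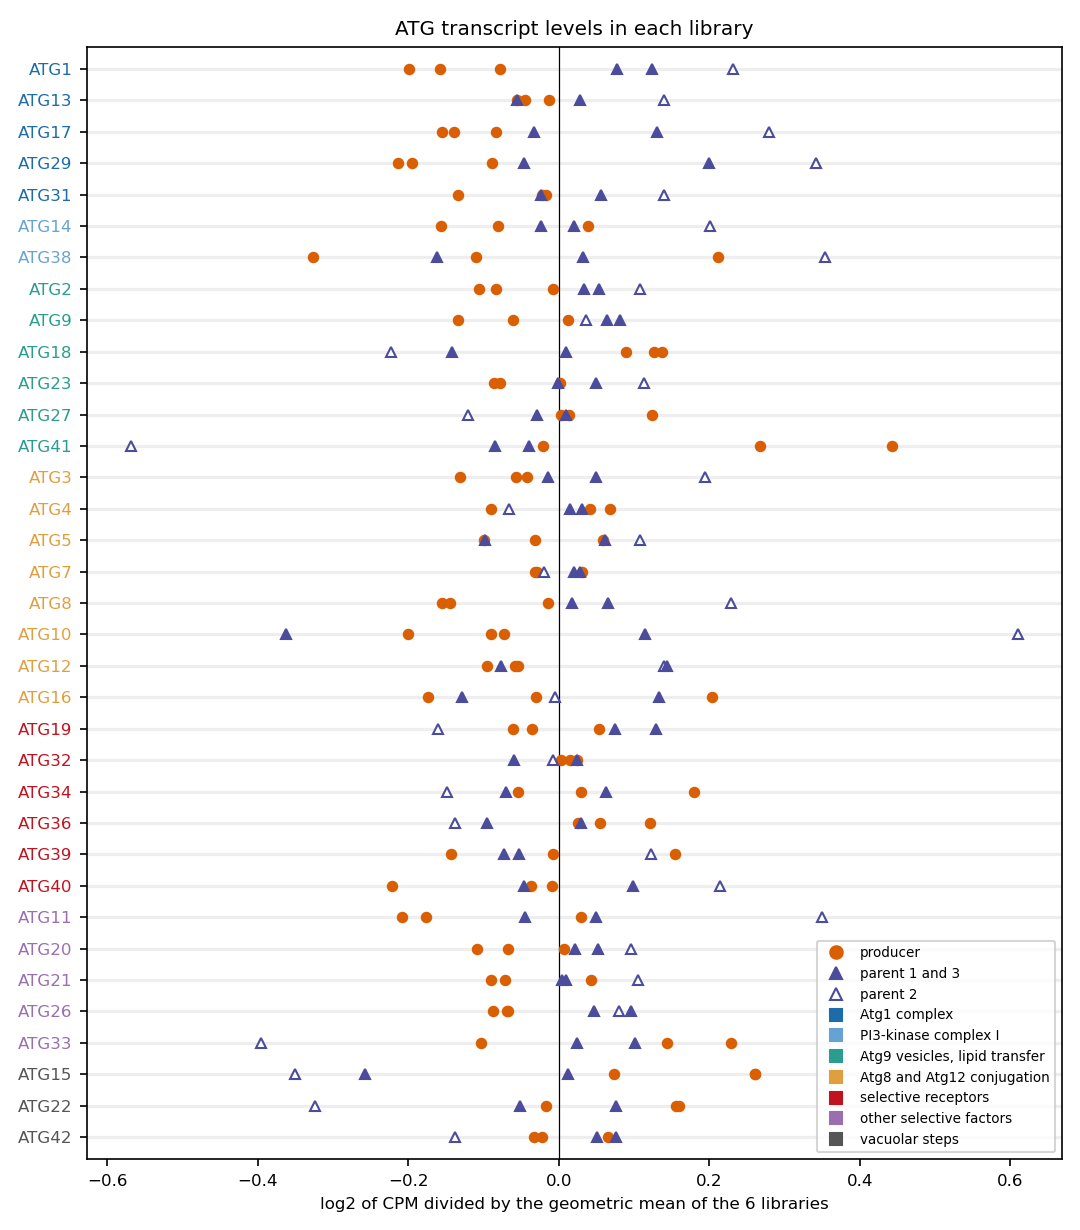
Each point is 1 library; the x axis gives log2 of its CPM divided by the geometric mean of the 6 libraries, and the 35 genes are grouped and coloured by role. Producer libraries (circles) lay below all parental libraries (triangles) in 9 genes (25.7%, against 17.2% of all tested genes) and above all of them in 3 (8.57%, against 16.6%); parent replicate 2 (open triangles) lay at one end in many genes.

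The Atg1 complex, which starts autophagosome formation, had all 5 members below 0 on the log2 fold change scale, from -0.34 to -0.08, and 0 passed. ATG1, the kinase, was at 126, 134 and 123 CPM in the producer and at 149, 166 and 154 CPM in the parent, so the strains did not overlap. Its log2 fold change was -0.29 ± 0.07 (SE), with an adjusted p of 0.0698, and corrected for GC content it was -0.16 ± 0.06, with an adjusted p of 0.184. ATG29, which with Atg17 and Atg31 forms the scaffold of the starved cell, was at 36.1, 33.1 and 33.5 CPM in the producer and at 37.2, 48.7 and 44.1 CPM in the parent. All producer libraries lay below the parental ones, with parent replicate 1 close to them. The log2 fold change of ATG29 was -0.34 ± 0.11 with an adjusted p of 0.104, and -0.08 ± 0.08 after the GC-content correction. ATG29 overlaps the end of SET6 on the opposite strand by 24 bases, and no source used here says whether counting respected strand. SET6 had a log2 fold change of 0.06 ± 0.09, and of 0.20 ± 0.11 after the correction. ATG17, the scaffold itself, was at 37.3, 37.7 and 39.2 CPM in the producer and at 40.6, 50.4 and 45.5 CPM in the parent, again without overlap. For ATG17 the log2 fold change of -0.26 ± 0.09 (adjusted p 0.129) was -0.01 ± 0.07 after the correction. ATG13, the regulatory subunit that links Atg1 to TORC1, stood at -0.08 ± 0.07 and ATG31 at -0.12 ± 0.10, and in both the strains overlapped. After the correction they were at -0.05 ± 0.06 and 0.03 ± 0.08.

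Of the 2 members in the phosphatidylinositol 3-kinase complex, ATG14, the subunit that directs the kinase to autophagy, was at 46.6, 44.2 and 50.7 CPM in the producer and at 48.5, 56.6 and 49.99 CPM in the parent. ATG14 had a log2 fold change of -0.13 ± 0.09, with overlapping strains, and of -0.04 ± 0.08 after the correction. ATG38, which holds the complex together, had a log2 fold change of -0.15 ± 0.16, which after the correction was 0.14 ± 0.11. Its coefficient of variation of 19.0% in the producer and 18.4% in the parent was above the medians of 4.70% and 7.57% over the 35 genes. Of the subunits without an ATG row name, VPS30, also known as ATG6, was at 76.3, 74.2 and 70.9 CPM against 78.1, 86.8 and 83.8 CPM. The log2 fold change of VPS30 was -0.17 ± 0.07 (adjusted p 0.171), and 0.03 ± 0.07 after the GC-content correction. The lipid kinase VPS34 itself stood at -0.04 ± 0.08, and at 0.06 ± 0.09 after the correction.

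The 6 genes of Atg9 vesicles and lipid transfer were split, with 3 above and 3 below 0 in log2 fold change, and 0 passed. ATG41, whose product binds Atg9, was at 97.1, 110 and 79.5 CPM in the producer and at 78.4, 54.4 and 76.0 CPM in the parent. The strains did not overlap, but producer replicate 3 and parent replicate 1 were nearly equal. The log2 fold change of ATG41, the highest of the 35, was 0.45 ± 0.16 with an adjusted p of 0.115, and it was 0.30 without parent replicate 2 and 0.19 ± 0.12 after the GC-content correction. ATG18, which binds phosphatidylinositol 3-phosphate and works with Atg2, was at 142, 143 and 138 CPM against 131, 111 and 118 CPM, without overlap. Its log2 fold change of 0.23 ± 0.07 (adjusted p 0.0989) was 0.10 ± 0.05 after the correction. ATG9, a membrane protein that moves lipids between leaflets, was at 70.5, 67.0 and 63.7 CPM in the producer and at 73.1, 71.7 and 74.0 CPM in the parent. Its parental libraries were close together and all lay above the producer ones, with a log2 fold change of -0.12 ± 0.07 and 0.01 ± 0.08 after the correction. ATG2, the lipid transfer protein, also did not overlap, at -0.13 ± 0.06, or -0.03 ± 0.06 after the correction. ATG23 and ATG27, which bring Atg9 to the assembly site, were at -0.11 ± 0.07 and 0.09 ± 0.07, and after the correction at -0.03 ± 0.06 and -0.01 ± 0.06.

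Among the 8 conjugation genes the log2 fold changes ran from -0.29 to 0.01, and 0 passed. ATG8, the ubiquitin-like protein of the autophagosome membrane, was at 77.9, 71.2 and 70.7 CPM in the producer and at 79.7, 92.3 and 82.4 CPM in the parent. The strains did not overlap, with producer replicate 1 close to parent replicate 1. Its log2 fold change was -0.21 ± 0.08 with an adjusted p of 0.141, and correcting for GC content left it at -0.20 ± 0.08 with an adjusted p of 0.201. At -0.15 without parent replicate 2, ATG8 kept its sign under all 17 alternatives, where its log2 fold change ran from -0.26 to -0.12. ATG7, the activating enzyme of both systems, was at 107, 103 and 103 CPM against 107, 104 and 107 CPM, a log2 fold change of -0.02 ± 0.06. The strains overlapped fully in ATG7, and its 95% interval ran from -0.15 to 0.11; after the correction it was at 0.12 ± 0.07. ATG3, the conjugating enzyme for Atg8, stood at -0.16 ± 0.07 without overlap, and at -0.12 ± 0.06 after the correction. ATG4, the protease that trims Atg8, was at 0.01 ± 0.07, and at 0.04 ± 0.07 after it. For ATG12, its conjugation partner ATG5 and ATG16, which binds that conjugate, the log2 fold changes were -0.14 ± 0.09, -0.05 ± 0.08 and 0.00 ± 0.13, and after the correction 0.02 ± 0.07, 0.00 ± 0.08 and 0.15 ± 0.12. ATG10, the conjugating enzyme for Atg12, was at 3.21, 3.18 and 2.94 CPM in the producer and at 2.63, 5.16 and 3.66 CPM in the parent, the lowest level of the 35. The parental libraries spanned the producer ones, and the log2 fold change of -0.29 ± 0.24 had the widest interval, from -0.83 to 0.25. Without parent replicate 2 it was -0.01, and after the GC-content correction -0.17 ± 0.21.

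**Figure D2:**
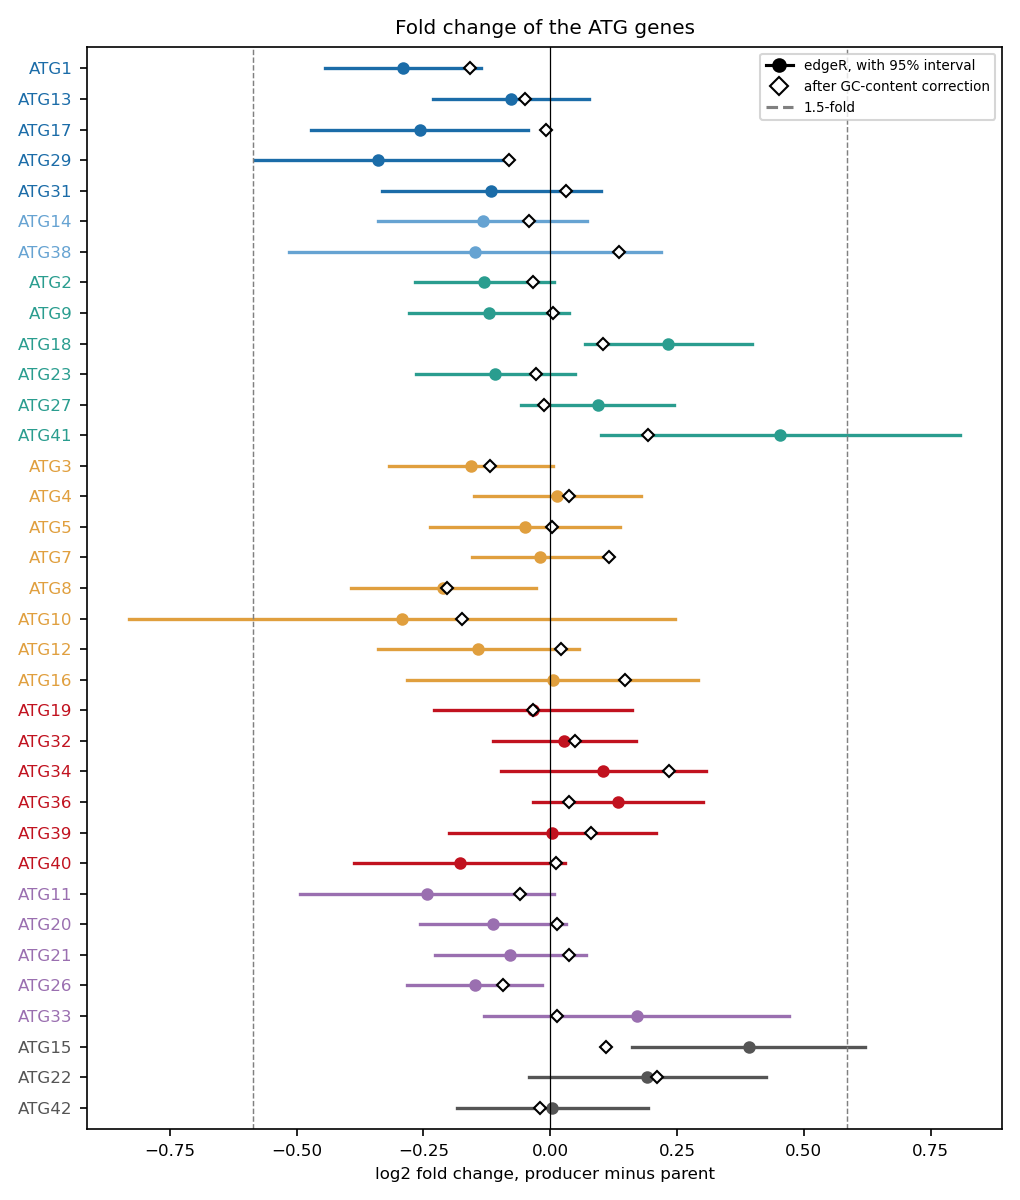
Circles with bars give the log2 fold change, producer minus parent, of each ATG gene with its 95% interval, and open diamonds the value after the GC-content correction; dashed lines mark 1.5-fold. After the correction the 35 values lay between -0.20 and 0.23, against -0.34 and 0.45 before it.

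The 6 selective receptors had a median log2 fold change of 0.02, 0 passed, and the strains overlapped in all 6. ATG19, the Cvt receptor, was at 253, 234 and 238 CPM in the producer and at 257, 219 and 267 CPM in the parent, a log2 fold change of -0.03 ± 0.09 that was -0.03 ± 0.08 after the correction. Its relative ATG34, which brings α-mannosidase to the vacuole in starved cells and lies beside ATG19 on chromosome XV, was at 70.3, 63.4 and 59.8 CPM against 59.2, 56.0 and 64.8 CPM. The log2 fold change of ATG34 was 0.10 ± 0.09, and corrected for GC content it reached 0.23 ± 0.10, with an adjusted p of 0.240. ATG32, the receptor for mitochondria, was the steadiest receptor, at 86.4, 85.8 and 85.1 CPM in the producer and 81.5, 84.5 and 86.3 CPM in the parent. The log2 fold change of ATG32 was 0.03 ± 0.06, with a 95% interval of -0.11 to 0.17, and 0.05 ± 0.05 after the correction. ATG36, the receptor for peroxisomes, was at 74.8, 71.5 and 70.0 CPM against 70.2, 62.5 and 64.4 CPM. Parent replicate 1 lay inside the producer range, and the log2 fold change was 0.13 ± 0.07, or 0.04 ± 0.06 after the correction. Both receptors for the endoplasmic reticulum follow, and the difference between them was not tested. ATG39, which also serves the nuclear envelope, was at 163, 148 and 182 CPM against 155, 178 and 158 CPM, a log2 fold change of 0.00 ± 0.09, or 0.08 ± 0.08 after the correction. ATG40 was at 61.5, 69.9 and 71.2 CPM against 69.4, 83.1 and 76.7 CPM, a log2 fold change of -0.18 ± 0.09 that was 0.01 ± 0.06 after the correction.

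Of 5 further factors of selective routes, 0 passed. ATG20, a sorting nexin, had a log2 fold change of -0.11 ± 0.06, and ATG26, a sterol glucosyltransferase needed for pexophagy in Pichia pastoris, -0.15 ± 0.06. Neither overlapped between strains, and ATG26 was the tightest of the 35 in the producer, with a coefficient of variation of 0.755%. ATG11, the scaffold for receptors, was at -0.24 ± 0.11, ATG21, which binds phosphatidylinositol 3-phosphate, at -0.08 ± 0.07 and ATG33, a mitochondrial outer membrane protein of mitophagy, at 0.17 ± 0.13. After the correction ATG20 was at 0.01 ± 0.06, ATG26 at -0.09 ± 0.05, ATG11 at -0.06 ± 0.07, ATG21 at 0.04 ± 0.06 and ATG33 at 0.01 ± 0.11. SNX4, the partner of Atg20 and also known as ATG24, stood at -0.15 ± 0.06 with an adjusted p of 0.163, and at -0.04 ± 0.06 after the correction.

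The 3 genes of vacuolar steps all lay above 0 in log2 fold change, and 0 passed. ATG15, the lipase that opens autophagic bodies, was at 209, 183 and 209 CPM in the producer and at 176, 137 and 146 CPM in the parent. The strains did not overlap, and the log2 fold change of 0.39 ± 0.10 had an adjusted p of 0.0735. ATG15 has the highest GC content of the 35 genes, 47.985%, and the correction brought it to 0.11 ± 0.07, with an adjusted p of 0.399. ATG22, an amino acid exporter of the vacuole, was at 0.19 ± 0.10 and at 0.21 ± 0.10 after the correction, with overlapping strains. ATG42, a vacuolar carboxypeptidase, was at 0.00 ± 0.08, and at -0.02 ± 0.07 after it.

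Core machinery, receptors and starvation-induced members were compared by their counts and medians, without a test of the difference between the groups. The core, formed by the first 4 groups above, had a median log2 fold change of -0.12 over 21 genes. Of these, 16 were below 0, beside 3154 of all 6125 tested genes, and 11 were after the GC-content correction. In 7 of these 21 all producer libraries lay below all parental ones, or 33.3%, against 17.2% of all tested genes, and in 2 they lay above, or 9.52%, against 16.6%. The corresponding counts among the 6 receptors were 0 and 0. The 9 members induced in starved yeast (ATG1, ATG7, ATG8, ATG9, ATG14, ATG29, ATG32, ATG39 and ATG41) had a median of -0.12. Of these 9, 4 did not overlap and lay below, or 44.4%, against 17.2% of all tested genes. Another 1 lay above, or 11.1%, against 16.6%. Overlap was not counted after the GC-content correction. The 7 core genes on that list had a median of -0.13 and the other 14 core genes -0.11. After the GC-content correction the medians were -0.01 for the core, 0.04 for the receptors and 0.01 for the starvation-induced members. As deviations from the 6-library mean before that correction, core genes stood at -0.04, -0.08 and -0.04 (log2) in the producer. In the parent they stood at -0.01, 0.14 and 0.05, so parent replicate 2 was highest and parent replicate 1 close to the producer. Corrected for GC content, core genes stood at 0.06, 0.01 and -0.01 in the producer. The corrected parental values were 0.01, -0.07 and -0.01, with parent replicate 2 lowest.

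Gene GC content moved with these differences. Over the 35 ATG genes the Spearman correlation of log2 fold change with GC content was 0.689, given as a description, since all genes share the same 6 libraries. The 5 genes below 36% GC (ATG11, ATG17, ATG29, ATG38 and ATG40) had a median log2 fold change of -0.24, and all 589 tested genes in that range -0.21. Between 36% and 38% the 11 ATG genes had a median of -0.12 and all 1150 genes -0.13. Between 38% and 40% the medians were -0.06 for 12 ATG genes and -0.04 for 1533 genes. The 6 ATG genes at 42% or more (ATG15, ATG18, ATG27, ATG33, ATG36 and ATG41) had a median of 0.20, and all 1564 genes there 0.18. After the correction the standard deviation of the 35 log2 fold changes was 0.103, against 0.182 before it, and their correlation with GC content was 0.078. The correction takes this trend out of each library, so the drop in correlation is built in. A strain difference that follows GC content would be removed with it. Then 0 of 35 had an adjusted p under 0.05, against 1.2% of the 6063 genes tested. At an unadjusted p under 0.05 there were 3 of 35 (ATG1, ATG8 and ATG34), against 19.2% of all.

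**Figure D3:**
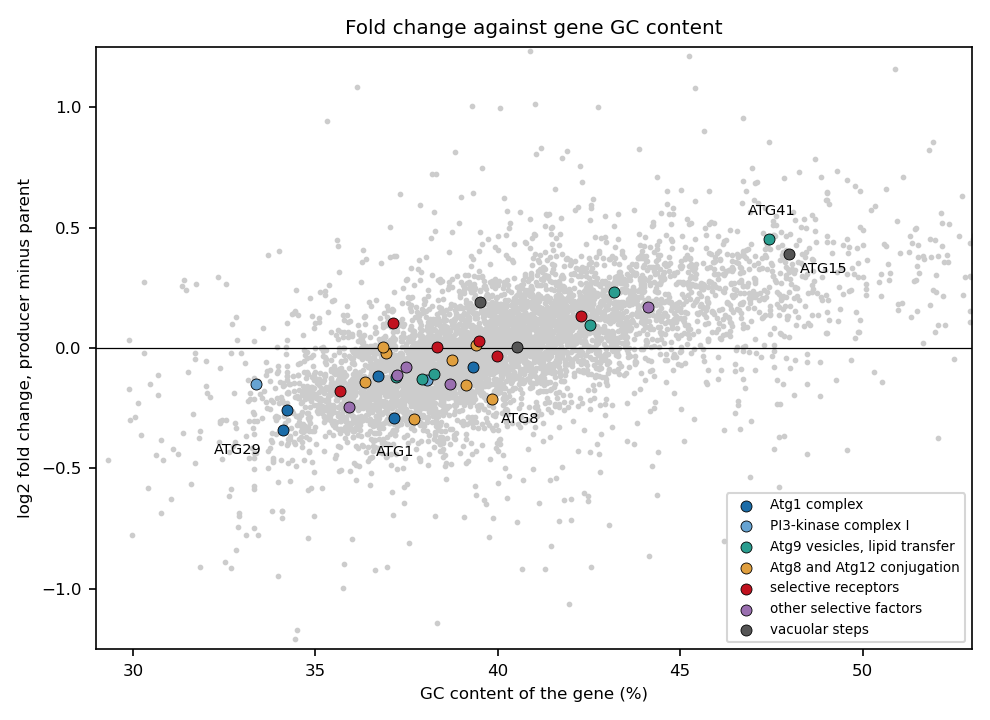
The x axis gives the GC content of each gene in percent and the y axis its log2 fold change, producer minus parent; grey points are 6000 tested genes, with 63 outside the axes, and coloured points the 35 ATG genes by role. The ATG genes lie along the band of all genes, from ATG29 at 34.1% GC and -0.34 to ATG41 at 47.4% and 0.45.

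The levels of the ATG genes differed far more between genes than between strains. On the scale of CPM per kb of gene length, averaged over the strain means, the highest level was 36.5 times the lowest, and the median gene stood at percentile 47.8 of all tested genes. ATG42 at 251, ATG33 at 242 and ATG8 at 223 CPM per kb were the highest, followed by ATG41 and ATG27, both at 201, and ATG19 at 196. Neighbours in this order overlapped in their libraries. The scaffold genes of the Atg1 complex were unequal, with ATG29 at 60.4, ATG31 at 35.8 and ATG17 at 33.3 CPM per kb, and the last 2 overlapped. ATG12 and ATG5, whose products are joined, were level at 71.0 and 70.5 CPM per kb, and ATG16 was at 40.5. Among the receptors ATG19 was highest, ATG39 followed at 137, ATG40 at 93.3 and ATG36 at 78.1, with ATG32 at 53.4 and ATG34 at 50.3 CPM per kb last; ATG40 overlapped ATG36, and ATG32 overlapped ATG34. ATG11 at 29.3, ATG2 at 25.5 and ATG9 at 23.4 CPM per kb were low and overlapped, and ATG10 at 6.87 was lowest, at percentile 4.26 of all tested genes. Duplicate reads were removed before counting, so levels of abundant genes may be too low. No word of 31 bases in the 35 genes occurs elsewhere in the reference genome.

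**Figure D4:**
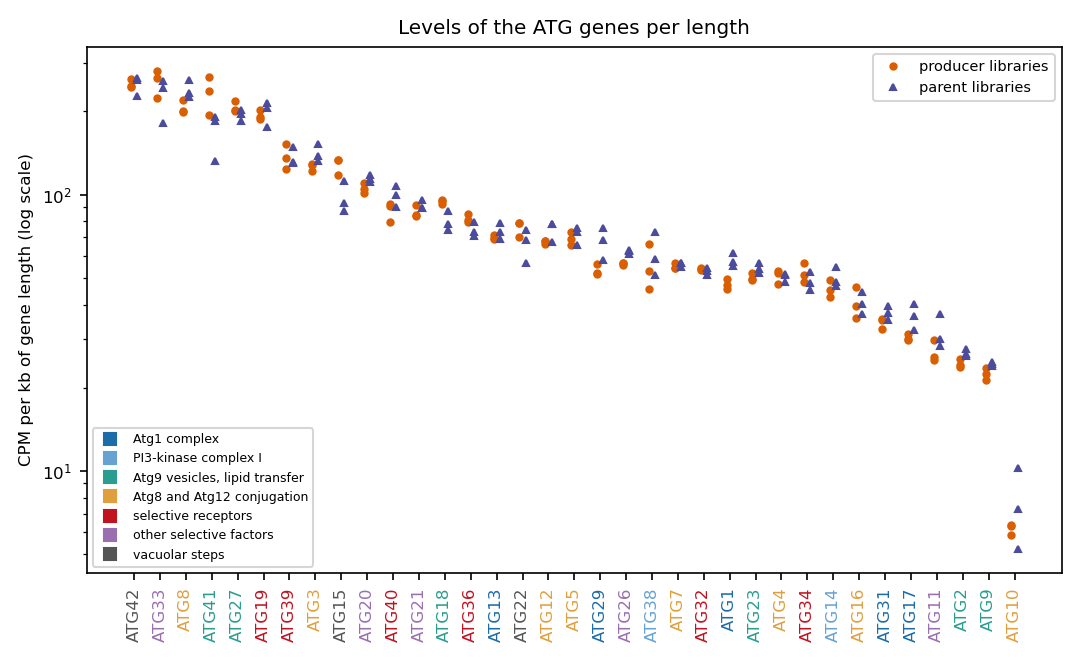
Each point is the level of an ATG gene in 1 library, in CPM per kb of gene length on a log axis, for producer (circles) and parent (triangles), with genes ordered by their mean and coloured by role. The range runs from ATG42 at 251 to ATG10 at 6.87 CPM per kb, while the largest ratio of the strain means was 1.37, in ATG41.

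Of 42 genes of autophagy and its control without an ATG name, 1 rose and 0 fell in edgeR's test, where 0.8% of all tested genes rose and 0.343% fell. GAT1, a GATA activator of genes repressed in good nitrogen supply, was at 270, 273 and 252 CPM in the producer and at 213, 185 and 203 CPM in the parent. The strains did not overlap, and the log2 fold change was 0.40 ± 0.08 with an adjusted p of 0.0455. The GC content of GAT1 is 46.1%, and after the correction it was at 0.18 ± 0.06 with an adjusted p of 0.157; it passed in 9 of 17 alternatives, with adjusted p between 2.43e-04 and 0.791. PHO23, a subunit of the Rpd3 deacetylase complex that represses ATG9, was at 0.39 ± 0.08 (adjusted p 0.0609) and at 0.15 ± 0.07 after the correction. VPS15, the regulatory subunit of the phosphatidylinositol 3-kinase, was at -0.32 ± 0.09 (adjusted p 0.0788) and at -0.09 ± 0.06 after it. TCO89, a TORC1 subunit, was at -0.20 ± 0.06 (adjusted p 0.0917) and at -0.18 ± 0.05 after it.

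Over the 12 transcriptional regulators the median log2 fold change was 0.05, over 10 upstream kinases and TORC1 subunits -0.01, and over 13 further machinery genes -0.13. These medians, and those of the cargo and protease genes below, are from before the GC-content correction. After it the 13 machinery genes lay between -0.09 and 0.10, against -0.32 and 0.21 before it. The 4 cargo genes had a median of 0.23. Among them APE1, the aminopeptidase carried by the Cvt route, was at 632, 619 and 556 CPM in the producer and at 555, 383 and 534 CPM in the parent. Producer replicate 3 and parent replicate 1 were almost equal, and the log2 fold change of APE1 was 0.30 ± 0.14, or 0.15 ± 0.10 after the correction. The 3 vacuolar proteases had a median of 0.24 and 0 passed. PEP4, the protease that activates the others, was at 0.24 ± 0.11 and at 0.13 ± 0.08 after the correction, and PRB1 at 0.23 ± 0.12 and at -0.01 ± 0.08. UME6, the repressor that acts on ATG8, stood at 0.26 ± 0.08 (adjusted p 0.0917) and at 0.10 ± 0.06 after the correction.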

How the data were processed

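Each library has 1 deposited table of estimated counts, rounded to whole numbers, for each gene. Per the file headers, the authors made them from StringTie transcript files after removal of duplicate reads. Per the submitters' processing notes, the tools were HISAT2, SAMtools, Picard, FastQC and DESeq2, and the build was sacCer3; for versions, parameters and strand use, nothing is stated in these sources. The tables were joined by gene name, and 6210 of 6445 names, with all 35 ATG genes, matched the RefSeq annotation of assembly R64, from which sacCer3 is drawn; sequences, gene lengths and GC content come from it. No value needed rounding.

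The whole table was fitted with edgeR 4.0.16 (R 4.3.3), using its two-sided quasi-likelihood test after filterByExpr and TMM scaling, with robust dispersions and strain alone in the model. P-values were adjusted by Benjamini-Hochberg over 6125 genes, with a threshold of 0.05. Standard errors were taken as the absolute log2 fold change over the root of F. CPM were scaled by TMM. The GC-content correction removed from each library a loess trend (span 0.5, genes of at least 5 CPM) as an offset. DESeq2 1.42.0, limma 3.58.1 (voom), other scalings and filters, the replicate number as a block, the library total as a covariate and leaving out each library were alternatives. On simulated counts for the strain comparison over 6118 genes, 19 of 50 genes changed 1.25-fold and 46 of 50 changed 1.5-fold were recovered. Recovery for the ATG genes in the sequenced libraries, where log2 fold change followed GC content, was not tested.

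Taken over all genes, all pairs of libraries of a strain differed by more than sampling noise. This does not hold for each gene. In the producer the coefficients of variation of ATG26 and ATG32, 0.755% and 0.781%, were no larger than counting noise at their depth. The members, roles and other lists were chosen with earlier results of these data known. The rule for named genes accounts for every ATG gene and gives values in every library for the receptors, the starvation-induced members, and the 3 highest and 3 lowest log2 fold changes; of the other pathway genes it names those past the threshold, the 4 with the smallest p, and VPS30, VPS34, APE1, PEP4 and PRB1. SNX4 and UME6 were named after their values were seen. The carotenoid genes themselves were not analysed here.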

Additional observations from a re-analysis of the deposited data

How the results depend on the processing

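Of 17 alternatives, 2 gave called ATG genes. DESeq2 called 5 (ATG1, ATG15, ATG18, ATG29 and ATG41), and without parent replicate 1 there were 5 (ATG1, ATG15, ATG17, ATG18 and ATG29); over the 6 left-out libraries the count ran from 0 to 5. Over all tested genes the count of 70 became 842 with DESeq2, 25 with the GC-content correction and replicate block, 10 with the library total as a covariate, and 15 to 1077 when a library was left out: 22, 15 and 21 without producer replicate 1, 2 or 3, and 1077 and 16 without parent replicate 1 or 3.

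The median log2 fold change of the ATG genes was -0.13 with library totals only, 0.0125 with the GC-content correction, 0.0109 with that correction and the replicate block, -0.0363 with the library total as a covariate, and -0.12 to -0.0449 without 1 library. For the core genes it was -0.0074, -0.0072 and -0.0363 under the last 3 of these settings, and -0.15 to -0.0624 without 1 library. For the starvation-induced genes it was 0.0057, 0.0060 and -0.0363, and -0.12 to -0.0624. The receptor median was -0.0342 with library totals only. The cause was not tested.

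Same-numbered libraries of the strains deviated together only for number 1 (correlations of 0.238, -0.231 and -0.459). Other pairs ran from -0.33 (producer replicate 1 with parent replicate 2) to 0.475 (producer replicate 3 with parent replicate 2). Deviations of the 3 libraries of a strain sum to 0, so these values do not settle whether samples were paired. The replicate block gave 0 called ATG genes and 104 of all genes. The sign of the log2 fold change differed from the main value in at least 1 alternative for 18 ATG genes, none of them called there, and in none for 17. At this depth ATG10, at 178 counts in producer replicate 1, was the least precise.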

Other observations

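RefSeq gives the symbol ATG45 to the locus YIL024C, which the count tables list by its systematic name and which the naming rule therefore left out of the 35 genes. It was at 38.9, 37.2 and 47.8 CPM in the producer and at 34.0, 29.9 and 31.3 CPM in the parent, without overlap. Its log2 fold change was 0.38 ± 0.11 (SE) with an edgeR adjusted p of 0.0917, and correcting for GC content gave 0.23 ± 0.10 with an adjusted p of 0.274. The GC content of the gene is 43.9%. It was chosen after its values were seen.

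LAP3, also known as GAL6, a cysteine aminopeptidase carried to the vacuole as Cvt cargo, had the highest log2 fold change of the 42 other pathway genes. It was at 360, 386 and 293 CPM in the producer and at 286, 187 and 264 CPM in the parent, where producer replicate 3 and parent replicate 1 nearly met. The log2 fold change was 0.50 ± 0.16 (SE) with an edgeR adjusted p of 0.106, and 0.44 ± 0.14 when corrected for GC content, with an adjusted p of 0.173. LAP3 was chosen after its values were seen.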
